A study of Drosophila melanogaster with 11 samples.

Results

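The head and terminal patterning genes of the Drosophila melanogaster embryo were followed in RNA-seq of unfertilized eggs and of stage 5 embryos. They are 10 of the 17753 genes in the count table, taken by symbol: orthodenticle (oc), empty spiracles (ems), buttonhead (btd), cap-n-collar (cnc) and crocodile (croc) for the head, and tailless (tll), huckebein (hkb), fork head (fkh), brachyenteron (byn) and knirps-related (knrl) for the termini and the gut. The embryos were at zygotic genome activation (ZGA, nuclear cycle 14), when the embryo starts to transcribe its own genome at large. Ctrl embryos (genotype label t180, 3 libraries, replicates 2, 3 and 4) and DomKD embryos (genotype label t216, 4 libraries) came from mothers that carried the germline driver mat-alpha-Gal4 together with the control line of the TRiP collection for Ctrl or with a Domino shRNA for DomKD. The hairpin targets both isoforms of Domino, the ATPase that deposits the histone variant H2A.Z. The driver acts in the mother's germline, so the knockdown removes what the mother supplies, and the embryo's own domino gene is intact. The 4 libraries of unfertilized eggs had the Ctrl genotype and hold maternal transcripts only.

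In the textbook account, the head genes are switched on in overlapping stripes and caps at the anterior by the maternal Bicoid gradient together with the Torso signal. The terminal genes are switched on at both poles where the receptor tyrosine kinase Torso, through the Ras and MAP kinase pathway, removes the repressor Capicua and its partner Groucho from their enhancers. The gap factors Tailless and Huckebein then set up the gut primordia, in which fork head, brachyenteron and the knirps-type nuclear receptors are expressed. Each of these genes is read in only a part of the embryo, so a whole-embryo library averages it over many silent cells, and fewer expressing cells cannot be told apart from less RNA per cell.

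The libraries held 11809453 to 17700171 counts on genes. The level of dom was 1844 to 1976 CPM (counts scaled to the TMM-normalized library total) in Ctrl and 56.7 to 105 in DomKD embryos, which matched the labels. The share of counts on genes that were not maternally deposited was 3.25, 3.50 and 4.13% in Ctrl replicates 2, 3 and 4 and 4.24, 3.56, 4.01 and 3.18% in DomKD replicates 1 to 4, so it overlapped between the groups and was lowest in DomKD replicate 4 and Ctrl replicate 2. The levels of most of the genes studied, though not of cnc and less of knrl, moved with this share between libraries of the same group, as given below. No source used here says that the libraries came from separate collections, or from how many embryos each was made, so the p-values measure only the spread between these libraries.

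The 10 genes all code for transcription factors, and most are compact. In dm6 coordinates, oc lies at X:8630159-8650681 (minus strand), btd at X:9694186-9697558 (plus), ems at 3R:13901853-13904620 (plus), tll at 3R:30852315-30854400 (plus), hkb at 3R:4345015-4346646 (minus), fkh at 3R:28580976-28585264 (minus), cnc at 3R:23185580-23226711 (minus), byn at 3L:11927693-11935919 (plus), croc at 3L:21474133-21476479 (minus) and knrl at 3L:20597141-20620659 (minus). The genes hkb, tll, croc, ems, btd and fkh are at most 4289 nt from end to end, byn spans 8227 nt, and oc, knrl and cnc span 20523, 23519 and 41132 nt. The longest intron of knrl is 15117 nt and that of oc 7507 nt. Exons of cnc share 63 nt with a gene on the other strand and none with a gene on its own strand, and the other members share no exon sequence with another gene.

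Of the 10 genes, only cnc was maternally deposited, by the rule of the study's methods that a gene has over 5 TPM (counts per exon length, scaled to the same total in each library) in at least 3 of the 4 egg libraries. The other 9 were at or near 0 in eggs and were present in every embryo library. Unfertilized eggs of replicates 1 to 4 held 0, 2, 0 and 0 counts of oc and 0, 0, 3 and 1 of croc, and 0 in all 4 libraries for ems, btd, tll, hkb, fkh, byn and knrl. A count of 0 allows up to 3 counts per library, or 0.182 CPM at the depth of the egg libraries, and this limit covers counting error only. Ctrl embryos were above that limit by at least 612-fold for tll, 265-fold for hkb, 220-fold for byn, 150-fold for knrl, 126-fold for btd, 105-fold for fkh and 49.7-fold for ems. For the 2 genes with stray egg counts, the ratio of Ctrl to egg was 2175 for oc (95% exact counting interval 602 to 17967) and 440 for croc (171 to 1618). All 10 genes passed the edgeR quasi-likelihood test of Ctrl embryos against eggs after Benjamini-Hochberg adjustment over all tested genes (adjusted p of 2.69e-06 or less for the 9, and 1.61e-05 for cnc), 9 of them higher in embryos and cnc lower. In this comparison 85.8% of 7565 tested genes passed, 46.6% as higher and 39.2% as lower, and 84.9% had groups that did not overlap, as all 10 genes did. Of the 1241 tested genes not maternally deposited, 941 were higher in Ctrl embryos and 98 lower. This split was largely fixed in advance, since the class is defined by low levels in these same egg libraries. A gene near 0 in eggs, such as each of the 9, also enters the test only through its Ctrl counts. The calls of the 9 as higher are therefore no independent support.

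The exception, cnc, encodes a basic leucine zipper factor of the Nrf2 family with a cytoprotective form besides the form that patterns the mandibular segment. It stood at 90.5, 84.1, 79.6 and 82.9 TPM in the 4 egg libraries and at 51.2, 30.3 and 37.2 TPM in Ctrl embryos of replicates 2, 3 and 4. All Ctrl libraries lay below all egg libraries (log2 fold change -1.04, standard error 0.12). Counts were made per gene, so the transcript forms of cnc are summed, and maternal and zygotic cnc RNA cannot be told apart in embryos.

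**Figure D1:**
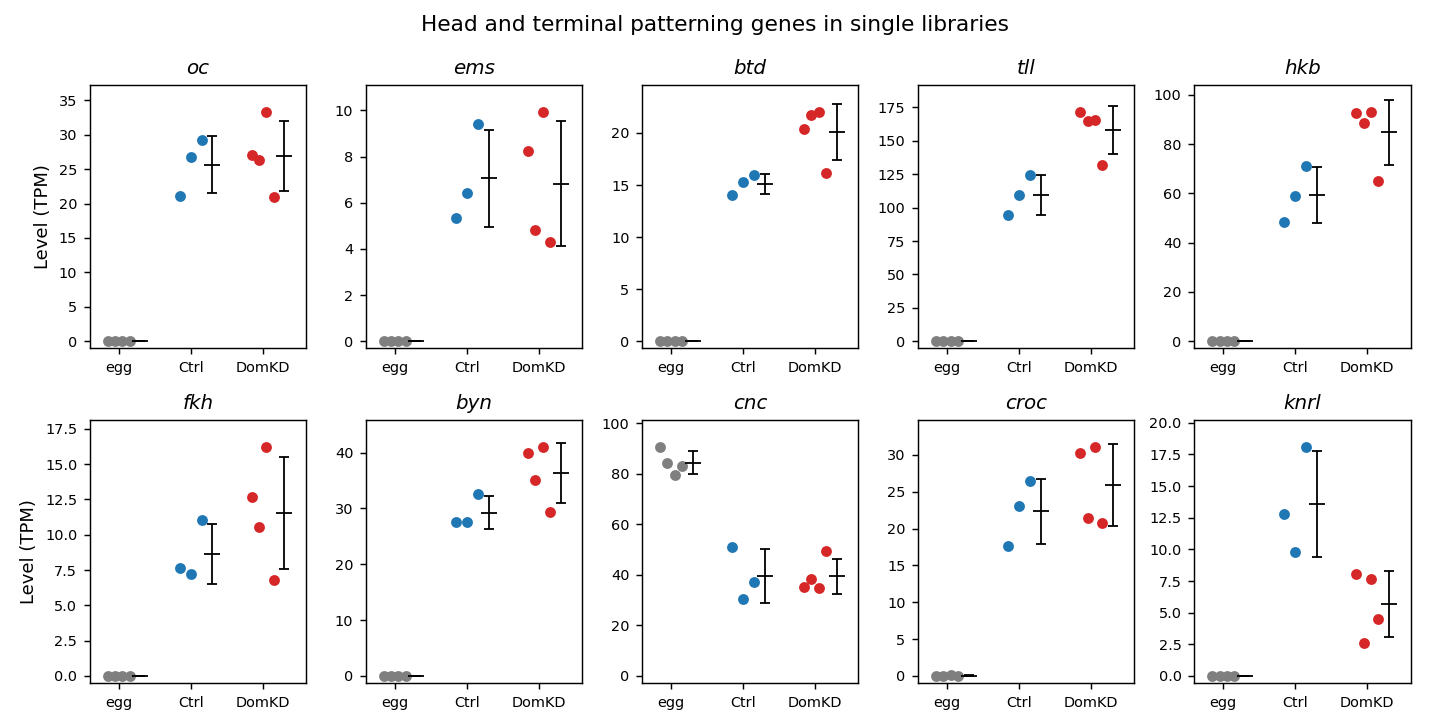
Level of each of the 10 genes in TPM on a linear axis that differs between panels, with 1 point per library (bars are the mean and SD) of eggs (n = 4), Ctrl embryos (n = 3) and DomKD embryos (n = 4). In eggs, cnc alone is above 79 TPM while oc and croc stay under 0.2 TPM and the other 7 are at 0; in embryos the values run from 2.61 TPM (knrl in DomKD replicate 2) to 171 TPM (tll in DomKD replicate 1).

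Among the terminal genes of Ctrl embryos, tll was the most abundant at 110 ± 14.9 TPM (SD, n = 3), followed by hkb at 59.4 ± 11.4, byn at 29.2 ± 2.93, knrl at 13.6 ± 4.17 and fkh at 8.63 ± 2.10 TPM. The head genes ran from cnc at 39.6 ± 10.6 over oc at 25.6 ± 4.17, croc at 22.4 ± 4.40 and btd at 15.1 ± 0.94 to ems at 7.05 ± 2.10 TPM. The full order was tll, hkb, cnc, byn, oc, croc, btd, knrl, fkh and ems, and only the steps from tll to hkb and from croc to btd separated neighbours whose 3 Ctrl values did not overlap. In DomKD embryos tll (158 ± 18 TPM, SD, n = 4) and hkb (84.7 ± 13.3) again led, and each stood clear of the gene below it. The last place passed from ems, at 6.82 ± 2.70 TPM, to knrl, at 5.71 ± 2.6 TPM, and these 2 overlapped.

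DomKD embryos were then compared with Ctrl embryos, which asks whether the transcripts of these genes at ZGA depend on maternal Domino. Of the 10 genes, 3 were higher in DomKD embryos (tll, hkb and btd), knrl was lower, and the other 6 did not pass the test at an adjusted p under 0.05. Over all 7727 genes tested, 26.1% passed, 10.6% as higher and 15.5% as lower. Of the 1453 tested genes that were not maternally deposited, 160 were higher and 369 lower. The median log2 fold change of the 10 genes was 0.32, and 0.37 without the maternal cnc, beside 0.0028 for all tested genes and -0.16 for those not maternally deposited. Many of the latter had fewer counts than the members. Among those averaging at least 50 counts, the median was 0.18 for genes up to 5 kb and -0.15 in both longer span classes, as given below. The values of the 2 groups did not overlap for btd, tll and knrl, 3 of 10 genes, beside 35.2% of all tested genes.

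Tailless, an orphan nuclear receptor that represses trunk genes at both poles, had 88.7, 113 and 124 CPM in Ctrl replicates 2, 3 and 4 and 183, 167, 171 and 132 CPM in DomKD replicates 1 to 4. Every DomKD library was above every Ctrl library, and the lowest of the 4, replicate 4, was close to the highest Ctrl library. The log2 difference was 0.59 for tll (standard error 0.13, adjusted p = 0.0113 by edgeR's quasi-likelihood test), about 1.5-fold. Huckebein, a zinc finger factor at the very ends of the embryo that bounds the mesoderm, had 36.1, 48.4 and 56.7 CPM in Ctrl and 78.6, 71.8, 76.3 and 52.0 CPM in DomKD embryos. Here DomKD replicate 4 lay below Ctrl replicate 4, so the groups overlapped, while the other 3 DomKD libraries were above all Ctrl libraries. Its log2 fold change was 0.57 (standard error 0.17, adjusted p = 0.0387 by edgeR). The call of tll was kept without any single library (log2 fold change 0.46 to 0.70, adjusted p 0.00465 to 0.0318 by edgeR). That of hkb was lost without Ctrl replicate 2 (0.40, adjusted p = 0.108), Ctrl replicate 3 (0.59, 0.0854), DomKD replicate 1 (0.51, 0.0853), DomKD replicate 2 (0.55, 0.0866) or DomKD replicate 3 (0.52, 0.0802), all by edgeR and all still higher.

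The gut genes byn and fkh gave positive values that did not pass. Brachyenteron, the T-box factor of the hindgut, had 34.9, 38.2 and 44.0 CPM in Ctrl and 57.3, 48.2, 57.0 and 39.6 CPM in DomKD embryos, with overlap through DomKD replicate 4. Its log2 fold change was 0.37 (standard error 0.14, adjusted p = 0.0793 by edgeR), and without DomKD replicate 4 it passed (0.47, adjusted p = 0.0191). With any other single library left out byn did not pass (adjusted p 0.0737 to 0.212 by edgeR). Fork head, a winged helix factor of the foregut and hindgut, had 15.7, 16.2 and 24.1 CPM in Ctrl embryos. In DomKD embryos it had 29.4, 23.5, 36.5 and 14.8 CPM, and the value of replicate 4 was below all Ctrl values while the other libraries were near or above the highest. The log2 difference was 0.48 for fkh (standard error 0.28, adjusted p = 0.23 by edgeR), and without DomKD replicate 4 it was 0.68 (adjusted p = 0.0445). With any other single library left out fkh did not pass (adjusted p 0.148 to 0.469 by edgeR).

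The head genes showed 1 change among 5. Buttonhead, an Sp-type zinc finger factor of the head stripe, had 19.7, 23.5 and 23.8 CPM in Ctrl and 32.4, 33.1, 33.8 and 24.2 CPM in DomKD embryos. All DomKD libraries were above all Ctrl libraries, although DomKD replicate 4 was only just so. The log2 difference was 0.47 for btd (standard error 0.14, adjusted p = 0.0325 by edgeR). Leaving out any library other than DomKD replicate 4 ended the call, with adjusted p of 0.0998 and 0.0605 without Ctrl replicates 2 and 3, 0.0596 without Ctrl replicate 4, and 0.0679, 0.0880 and 0.0711 without DomKD replicates 1, 2 and 3. The value stayed between 0.38 and 0.57 in these fits.

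The other 4 head genes did not pass the test and their groups overlapped. Crocodile, a forkhead factor at the anterior tip, had 19.8 to 31.5 CPM in Ctrl and 24.8 to 38.5 CPM in DomKD embryos (log2 fold change 0.26, standard error 0.21). Orthodenticle, the homeodomain factor of the anterior head and brain, had 50.7 to 74.9 and 53.9 to 87.9 CPM (0.12, standard error 0.17). Empty spiracles, a homeodomain factor of the head segments behind it, had 6.32 to 11.9 and 5.42 to 12.9 CPM (0.0069, standard error 0.32), from as few as 74 counts in a library. The maternally deposited cnc had 146 to 224 CPM in Ctrl and 167 to 231 CPM in DomKD embryos (0.057, standard error 0.15). The sign of ems and cnc turned under other scalings and that of oc without Ctrl replicate 2, so none of these 3 has a direction, and the standard error of ems leaves room for a change of the size seen in tll.

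**Figure D2:**
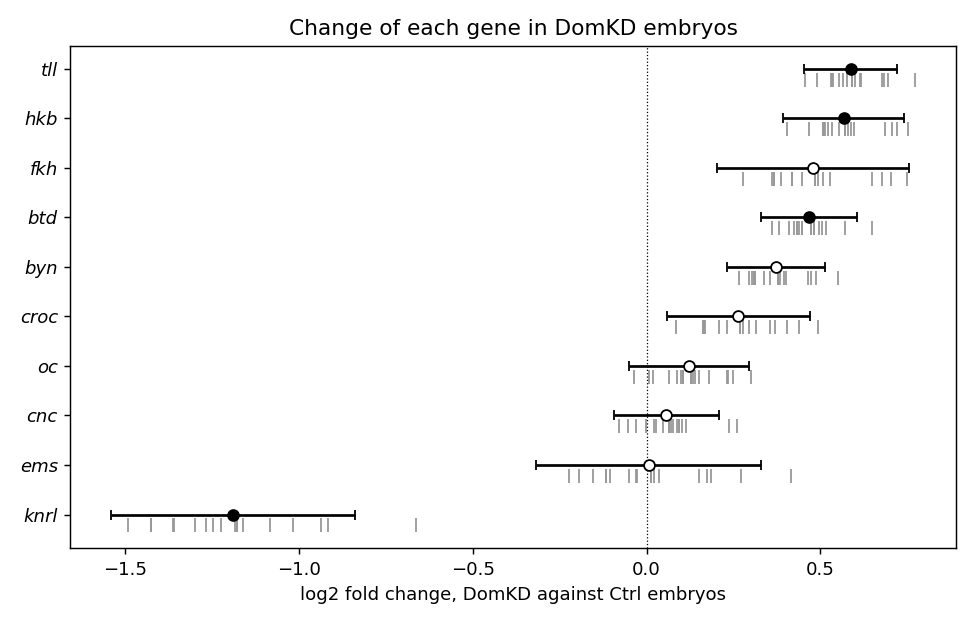
Log2 fold change of each gene in DomKD against Ctrl embryos from edgeR (points; bars are 1 standard error; filled points passed an adjusted p of 0.05), with grey ticks for the 17 alternative fits. tll, hkb and btd are filled on the right at 0.47 to 0.59, knrl is filled on the left at -1.19, and only the ticks of oc, cnc and ems fall on both sides of 0.

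The knirps-related gene went the other way. It encodes a nuclear receptor that is a paralog of the gap gene knirps (kni) and is expressed in much the same pattern, in the abdomen and the head of the blastoderm embryo. It is listed here with the terminal genes, although this blastoderm pattern is not that of the poles. Its counts were 405, 300 and 461 in Ctrl replicates 2, 3 and 4 and 209, 81, 180 and 123 in DomKD replicates 1 to 4. In CPM these were 23.9, 20.1 and 35.9 against 17.0, 5.28, 15.8 and 9.01, so all DomKD libraries were below all Ctrl libraries, with the lowest value in DomKD replicate 2. The log2 difference was -1.19 for knrl (standard error 0.35, adjusted p = 0.0330 by edgeR), or 0.438 of the Ctrl level. The call was lost without Ctrl replicate 2 (-1.27, adjusted p = 0.0516), Ctrl replicate 4 (-0.92, adjusted p = 0.133) or DomKD replicate 4 (-1.08, adjusted p = 0.0690), while the value stayed negative. With Ctrl replicate 4 and DomKD replicate 2 both left out, an alternative chosen after seeing the data, it was -0.66 (adjusted p = 0.157).

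The paralog kni lies 71670 nt away on the same strand, at 3L:20692330-20695378, with 1 coding gene between them. It had 55.0, 66.7 and 82.6 CPM in Ctrl and 114, 91.1, 108 and 78.7 CPM in DomKD embryos, and was higher by 0.53 on the log2 scale (standard error 0.16, adjusted p = 0.0352 by edgeR). The kni gene is 3049 nt long with a longest intron of 734 nt, against 23519 and 15117 nt in knrl. Within each library, the ratio of knrl to kni in TPM needs no scaling between libraries. It was 0.246, 0.171 and 0.247 in Ctrl replicates 2, 3 and 4 and 0.0844, 0.0328, 0.0829 and 0.0649 in DomKD replicates 1 to 4. All DomKD ratios were below all Ctrl ratios, with a mean difference of -1.81 on the log2 scale.

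An exact two-sided permutation test over the 7 libraries gave p = 0.0286 for this ratio, the smallest p that 3 against 4 libraries allow, and p = 0.129 after Benjamini-Hochberg adjustment over the 9 ratios computed. These ratios were chosen after the values were seen. Set against tll, knrl fell from 0.0896 to 0.145 of the tll level in Ctrl to 0.0158 to 0.0469 in DomKD embryos, with the same p. The ratios to tll of hkb (mean difference -0.019), btd (-0.13) and fkh (-0.16) overlapped between the groups. Those of oc (-0.47) and byn (-0.23) did not overlap and had an exact permutation p of 0.0571, or 0.129 after adjustment over the 9 ratios. As tll rose, a ratio to tll falls for a gene that did not change. The log2 fold changes of oc (0.12) and byn (0.37) themselves were not negative. The ratios of croc (-0.33, exact permutation p = 0.0857) and ems (-0.63, exact permutation p = 0.171) overlapped.

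**Figure D3:**
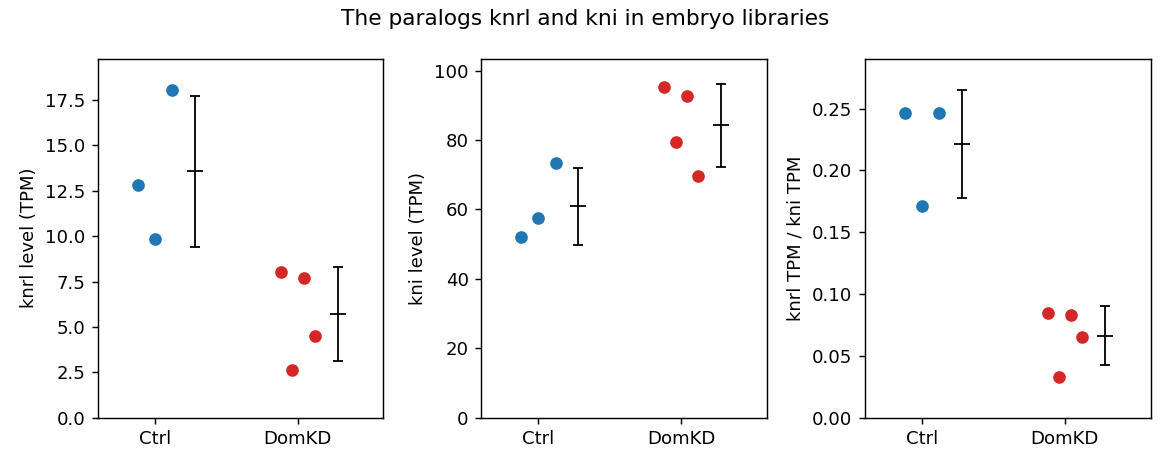
The paralogs knrl and kni by embryo library, in TPM and as the ratio of their TPM values (1 point per library, n = 3 Ctrl and 4 DomKD; bars are the mean and SD). The level of kni is 52.0 to 73.3 TPM in Ctrl and 69.7 to 95.2 TPM in DomKD embryos, while the ratio of knrl to kni lies at 0.171 to 0.247 in Ctrl and 0.0328 to 0.0844 in DomKD embryos.

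The members differ in gene span, with knrl and oc among the long zygotic genes. Among tested genes that were not maternally deposited and averaged at least 50 counts, the 267 genes up to 5 kb, which include btd, croc, ems, fkh, hkb and tll, had a median log2 fold change of 0.18 in DomKD embryos, with 64 higher and 35 lower. The 150 genes over 20 kb, which include knrl and oc, had a median of -0.15, with 19 higher and 42 lower, and the 167 genes between, with byn, had -0.15. At the limit of 10 counts used in the test, lower calls prevailed in the short genes too. There the 821 genes up to 5 kb had a median of -0.091, with 90 higher and 181 lower. The 267 genes over 20 kb had -0.27, with 31 higher and 82 lower, and the 352 between had -0.24, with 38 higher and 101 lower. The part of gene span in the change of knrl was not tested.

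Across libraries of the same group, the zygotic members rose and fell together. Ctrl replicate 2 had the lowest CPM of its group for 8 of the 9 genes that were not maternally deposited, all but knrl, and Ctrl replicate 4 had the highest for all 9. DomKD replicate 4 had the lowest for 8 of the 9, again all but knrl. The highest DomKD value was in replicate 1 for tll, hkb, byn, croc and knrl and in replicate 3 for oc, ems, btd and fkh. Ctrl replicate 2 and DomKD replicate 4 had the lowest share of counts on genes not maternally deposited in their groups, and Ctrl replicate 4 and DomKD replicate 1 the highest. With TMM factors from those genes alone, tll (0.77), hkb (0.75), btd (0.65) and knrl (-1.02) kept their calls, on a scale where the median of all genes was 0.19. With factors taken from Zelda-zygotic genes instead, tll (0.49, adjusted p = 0.0284 by edgeR) and knrl (-1.30, adjusted p = 0.00284) kept theirs, while those of btd (0.36, adjusted p = 0.243) and hkb (0.47, adjusted p = 0.0771) were lost. That set held 82 genes of the study's Zelda-dependent class, not maternally deposited and over 5 TPM in Ctrl embryos. It was drawn from the 1999 genes with a class at hand, and tll and byn are themselves in it. Over the 7 embryo libraries, which share these differences in composition and depth, the 28 pairs of the 8 genes without cnc and knrl had Pearson correlations of log2 CPM between 0.40 and 0.99 (median 0.83). With the group means removed they lay between 0.73 and 0.99. The correlations of knrl with these 8 ran from -0.51 to 0.57, and from 0.22 to 0.81 with the group means removed. The maternal gene cnc had negative values with all 9 (-0.82 to -0.22). The 9 zygotic genes together made up 0.944 to 1.06% of the counts on genes not maternally deposited in Ctrl and 1.11 to 1.27% in DomKD embryos, and these ranges did not overlap. Over plain library totals the same 9 genes came to 307 to 433 CPM in Ctrl and 355 to 516 CPM in DomKD embryos, with overlap. The genes not maternally deposited, which form the total of the percentage above, had 369 lower and 160 higher calls in DomKD embryos. The sum of the 9 genes is weighted by counts, so tll weighs most in it, and it does not show a rise of each gene, as knrl fell.

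**Figure D4:**
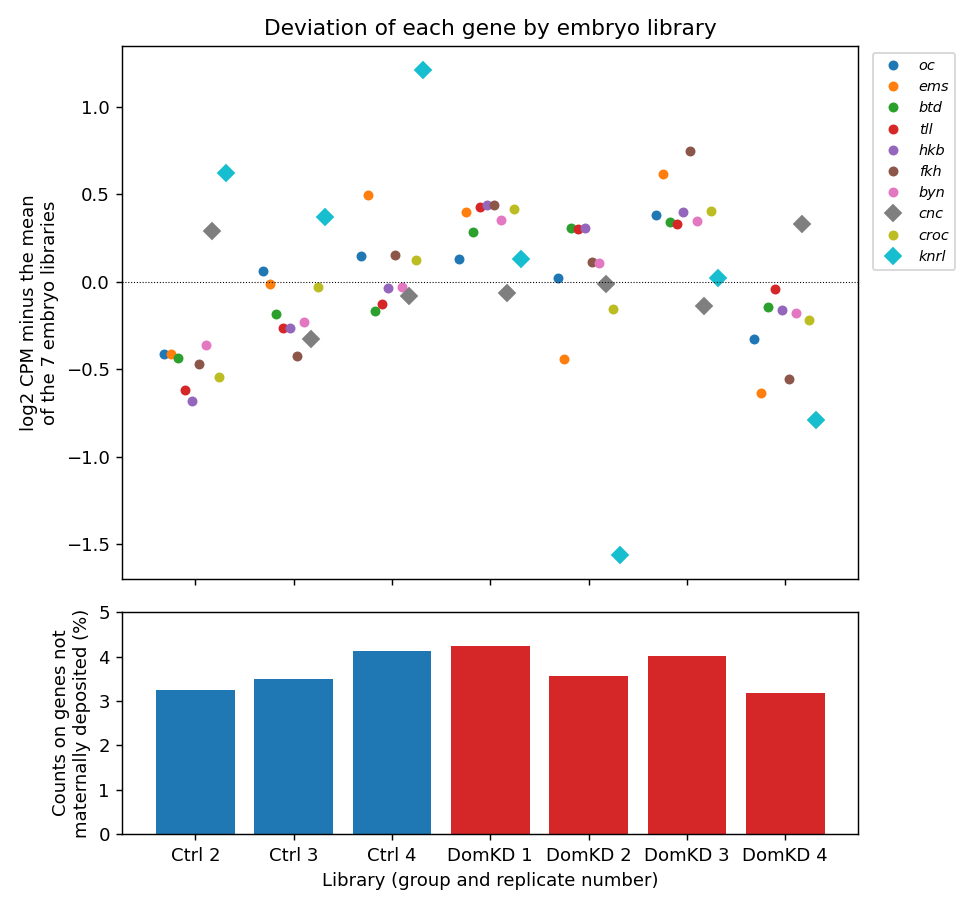
Upper panel, log2 CPM of each gene minus its mean over the 7 embryo libraries; lower panel, percent of counts on genes not maternally deposited in each library. The genes other than cnc and knrl lie lowest in Ctrl replicate 2 or DomKD replicate 4, where the share is 3.25 and 3.18%, and highest in DomKD replicate 1 or 3, where it is 4.24 and 4.01%, while knrl is highest in Ctrl replicate 4 and lowest in DomKD replicate 2.

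For each member, the gene with the most similar pattern over the 7 embryo libraries was taken by Pearson correlation of log2 CPM among the 6507 genes that averaged at least 50 counts. It was tolloid (tld), a secreted protease of dorsal patterning, for tll (r = 0.997), Nin for hkb (0.996), Qtzl for byn (0.995) and phyl for btd (0.987). It was short gastrulation (sog), which encodes an antagonist of Dpp, for oc (0.969), Pka-C3 for ems (0.980), lute for croc (0.991), Ndae1 for fkh (0.976), rdgB for cnc (0.986) and Spps for knrl (0.991). Many genes had an r over 0.9 with a given member, from 31 for oc to 333 for tll, as 7 libraries with shared composition allow. Group means were kept in these correlations, so a partner of a changed member tends to share its direction by selection and is no independent support. The change of tld in DomKD embryos was 0.44 and that of phyl 0.72, both passing, and that of Spps was -0.44, which did not pass (adjusted p of 0.0126, 0.00676 and 0.0616 by edgeR). Nin (0.34), Qtzl (0.16), lute (0.051), sog (0.13), Pka-C3 (0.0062), Ndae1 (0.37) and rdgB (0.10) did not pass either. Of the partners, Nin, Qtzl, lute, rdgB and Spps were maternally deposited.

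The maternal inputs to these genes, in the Bicoid and the Torso, Ras and MAP kinase pathways, held changes in both directions. Of 17 listed, 16 were tested, with 2 higher, 3 lower and a median log2 fold change of 0.078. These numbers are about the shares of all tested genes, 10.6% higher and 15.5% lower. Of the inputs, 4 that did not pass the test were the anterior morphogen bcd, at 0.30 (standard error 0.13, adjusted p = 0.114 by edgeR), the receptor tor, at 0.053, the repressor cic, at 0.15, and the corepressor gro, at 0.11. Higher were hunchback (hb, 0.46), which is both maternal and zygotic, and the MAP kinase gene rolled (rl, 0.28). Lower were Sos (-1.13), the exchange factor for Ras, exuperantia (exu, -0.70), needed to localise bcd RNA, and Ras85D (-0.23), the Ras gene of the Torso pathway, which falls outside the rule for named genes and was named after its value was seen. Sos had 11.6 ± 2.91 TPM in Ctrl (SD, n = 3) and 5.08 ± 0.64 TPM in DomKD embryos (SD, n = 4), and 34.9 TPM in eggs.

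Other genes of the head and of the gut showed changes in both directions. Of 14 further head genes 11 were tested, of which 8 did not pass and 3 were lower, namely Deformed (Dfd, -1.41), the Hox gene of the posterior head, gcm (-1.38), the factor for glia and blood cells, and the Pax6 gene twin of eyeless (toy, -0.93), and the median was -0.15. Of 10 further terminal and gut genes 9 were tested and the median was -0.26. Zerknüllt (zen, 0.73), the dorsal homeobox gene, kni (0.53) and the posterior homeobox gene caudal (cad, 0.40) were higher, and drumstick (drm, -1.76) and brother of odd with entrails limited (bowl, -0.72), zinc finger genes of gut development, were lower. The 3 head genes and the 2 gut genes that were lower had at most 16.0 CPM on average in Ctrl embryos, below the 22.3 CPM of btd.

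Markers of embryo age were measured beside these results. Of 8 early zygotic genes (nullo, bnk, Sry-alpha, slam, ftz, eve, sna and twi) 7 were tested, bnk was higher (0.55), 6 did not pass, and the median was 0.39. Their summed level ran from 2552 to 3825 CPM in Ctrl and from 3430 to 4870 CPM in DomKD embryos. Most of this sum was slam, a gene of cellularisation that was also maternally deposited, with TMM-scaled mean levels of 2762 CPM (Ctrl) and 3853 CPM (DomKD). Without slam the sum was 370 to 475 CPM (Ctrl) and 469 to 620 CPM (DomKD), with a narrow overlap on this scale. Sry-alpha, which shares its coordinates with Sry-beta, had 0 counts in every library. Of 8 later genes (wg, en, hh, Ubx, abd-A, Abd-B, mirr and tin) all were tested and 4 were lower: tin (-1.99), Abd-B (-1.79), Ubx (-1.24) and wg (-0.70), with a median of -0.62. Their summed level was 39.0 to 53.1 CPM in Ctrl and 21.4 to 38.7 CPM in DomKD embryos. The nearest libraries were Ctrl replicate 3 at 39.0 and DomKD replicate 1 at 38.7 CPM. They were so close that TMM scaling, not applied here, could make the groups overlap. The part of embryo age in the higher tll, hkb and btd and the lower knrl was not tested.

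Markers of other cell types were also summed. The 6 neuronal genes came to 35.6 to 52.1 CPM in Ctrl and 6.79 to 15.4 CPM in DomKD embryos, mostly from elav (-1.89). Only 3 of the 6 had enough counts to be tested. Of these, futsch was also lower (-1.37), from a mean of only 1.63 CPM in Ctrl embryos, and 1 did not pass. The 6 muscle genes came to 6.88 to 9.01 and 2.98 to 4.09 CPM. Only 2 of them were tested, of which bt was lower (-1.30) and 1 did not pass. The 7 follicle cell genes of the eggshell came to at most 0.123 CPM in any embryo library, with Cp38, Vm26Aa and Vm34Ca at 0 in all of them. The summed level of the 6 pole cell and germ plasm genes overlapped between groups, at 933 to 1243 and 885 to 1218 CPM. Of these 6 the helicase gene vas was higher (0.51, adjusted p = 0.0433 by edgeR), and the other 5 did not pass, with values from -0.23 to 0.34. The 6 genes of maternal egg RNAs and eggshell came to a median of 594 CPM (Ctrl) and 657 CPM (DomKD), with overlap. Of the 4 tested, grk was higher (0.49) and the other 3 did not pass.

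**Figure D5:**
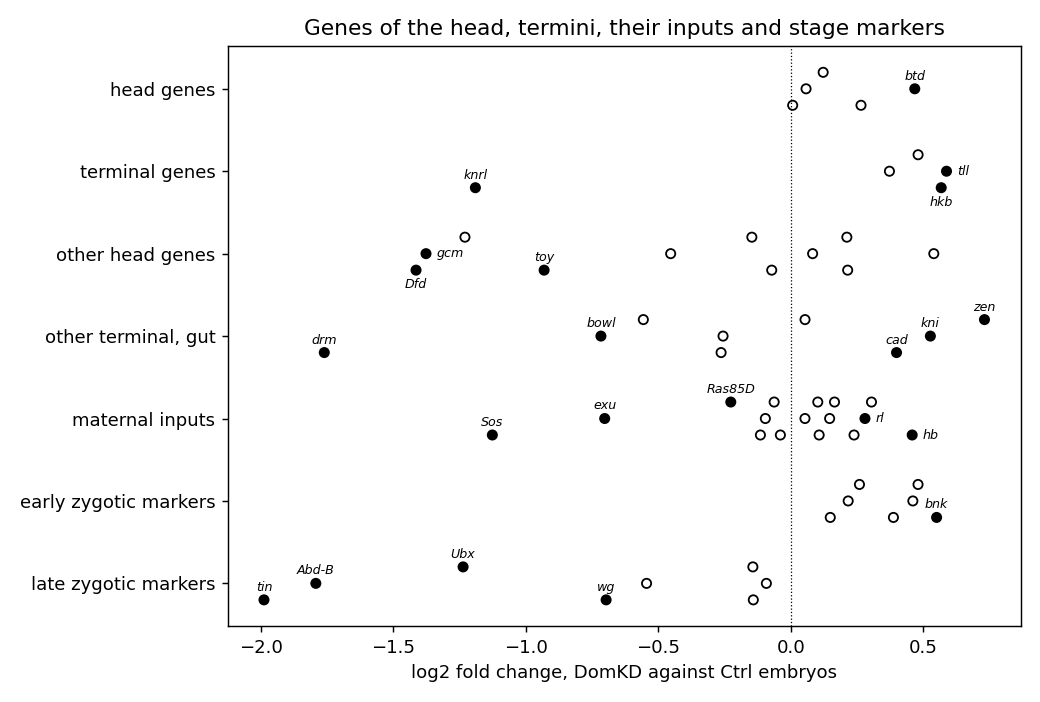
Log2 fold change in DomKD against Ctrl embryos of the head and terminal genes, of other genes of the head, termini and gut, of their maternal inputs and of stage markers (1 point per tested gene; filled and named points passed an adjusted p of 0.05). The filled points of the later zygotic markers lie between -1.99 and -0.70 and those of the other head genes between -1.41 and -0.93, while tll, hkb and btd lie between 0.47 and 0.59.

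By the classes that the study gave to zygotic genes, tll and byn are Zld-dependent, reliant on the pioneer factor Zelda, and oc, ems, btd, fkh, croc and knrl are H2A.Z-negative. Both Zld-dependent genes had positive values, of which that of tll passed. The 6 H2A.Z-negative genes ran from -1.19 for knrl to 0.48 for fkh, with btd higher, knrl lower and 4 that did not pass. Classes of hkb and cnc were not used here.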

How the data were processed

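Total RNA of unfertilized eggs and stage 5 embryos was made into libraries with the TruSeq Stranded Total RNA protocol. Reads were trimmed and mapped to dm6 by the authors in snakePipes 2.0.2 (mRNA-seq workflow, Ensembl release 96), and featureCounts gave the deposited raw counts, listed with exon lengths. The strand setting is not given in the sources used here. A further count column (1), named like a Ctrl stage 5 library of replicate 1, matched no listed sample and was used in no step, so the Ctrl group rests on 3 libraries.

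Tests were run in R 4.3.3 with edgeR 4.0.16 (TMM, quasi-likelihood, condition only, genes averaging at least 10 counts, Benjamini-Hochberg over all tested genes, threshold 0.05). The standard error is the log2 fold change divided by the square root of F. CPM of single genes used TMM-scaled library sizes (prior count 2 on the log2 scale), and summed marker levels used plain library totals. TPM used the deposited lengths, which equal those of release 115 for all 10 genes. Names and coordinates came from release 115. The script was tested on simulated counts. The alternatives were DESeq2 1.42.0, other scalings, other filters, a replicate block, all 11 libraries in 1 fit and each library left out.

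The members, the gene lists and the tests were chosen with earlier results of these data known. Genes outside the members were named by rule: the called genes of each list, at most the 4 with the largest change, the inputs bcd, tor, cic and gro, the most similar gene of each member, dom, and kni as the paralog of knrl. Exceptions are Ras85D, named after its value was seen, and cad, which is beyond the 4 of its list if kni is counted. No sequences were used, so a planned count of promoter motifs was not made. Figures were drawn with matplotlib 3.10.9.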

Additional observations from a re-analysis of the deposited data

Results flagged for a closer look

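The level of btd in DomKD replicate 4, at 24.2 CPM, stood apart from the other 3 DomKD libraries, which lay between 32.4 and 33.8 CPM. The gap to the nearest of them was 0.856 of the range of the 4 values. With 11 groups of 4 libraries looked at, about 0.55 such gaps come by chance. The same library had the lowest DomKD level of 8 of the 9 zygotic members.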

How the results depend on the processing

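Of 17 distinct alternative fits of DomKD against Ctrl embryos, tll passed in 16, knrl in 13, btd and hkb in 7 each, byn in 3 and fkh in 2, and these genes and croc kept their direction in all 17. Leaving out each library in turn gave 1 to 5 called members, 1 to 5 of them higher and 0 to 1 lower, while knrl had an unadjusted p under 0.05 in each. With only genes averaging at least 100 counts, and with size factors from Zelda-zygotic genes, 2 members were called, tll as the 1 higher and knrl as the lower. Without Ctrl replicate 4 and DomKD replicate 2, chosen after seeing the data, 1 member was called by edgeR (tll, higher) and 0 lower, against 4 higher and 1 lower at an unadjusted p under 0.05. TMM over genes not maternally deposited gave 5 higher (btd, fkh, tll, byn and hkb) and moved the median of all genes to 0.19. The share of lower calls over all genes was 59.3%, but 72.0% with library size alone, 86.8% with the Zelda-zygotic factors and 45.9% with TMM over genes not maternally deposited. The cause of these moves was not tested.

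Values whose sign turned belong to genes that never passed. With libraries left out, singly or as that pair, the values ran from -0.22 to 0.42 for ems, from -0.079 to 0.24 for cnc and from -0.036 to 0.25 for oc. For ems they were -0.051 (library size alone), -0.027 (filter at 100), -0.15 (replicate block), -0.12 (same libraries without the block), -0.10 (Zelda-zygotic factors) and -0.19, -0.032, -0.12 and -0.22 (without Ctrl replicates 2 and 3 and DomKD replicates 1 and 3). For cnc they were -0.0017 (library size alone), -0.030 (Zelda-zygotic factors) and -0.079 and -0.052 (without Ctrl replicate 3 and DomKD replicate 4), and for oc -0.036 (without Ctrl replicate 2).

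Replicate numbers showed no sign of pairing: deviations of same-numbered DomKD and Ctrl libraries correlated at 0.068, -0.0070 and -0.53, and no library correlated best with its own number. With 3 shared numbers this check cannot exclude a shared collection or batch. With a replicate block over the 3 shared numbers 1 member was called (knrl, -1.49, adjusted p = 0.0285 by edgeR), with 0 higher, against 3 higher at an unadjusted p under 0.05. The same libraries without the block, which is the fit without DomKD replicate 1, gave 2, with 1 higher.

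All 10 genes kept their calls of Ctrl against eggs in the alternatives that tested them, the replicate block included, and ems fell below the filter at 100 counts. With cnc as the 1 maternal gene, limits of 1 and 10 TPM and leaving out each egg library changed nothing. Depth limits ems most, with 74 to 152 counts in embryo libraries.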
